A study of Homo sapiens with 4 samples.

Results

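FOXK2 occupancy was examined at 8 genes of interferon and cytokine signalling: the interferon regulatory factors IRF1, IRF2 and IRF9, the signal transducers STAT2, STAT3 and STAT5B, and the suppressors of cytokine signalling SOCS2 and SOCS3. Their peaks are the rows of the deposited FOXK2 ChIP-seq lists that carry one of these gene names, which is the gene with the nearest transcription start site (TSS). There were 24 such peaks, 7 of the 12471 peaks in replicate 1 and 17 of the 27281 peaks in replicate 2. The ChIP was done with an anti-FOXK2 antibody in OVCAR5, an ovarian cancer cell line labelled as high-grade serous and of ascites origin. Both ChIP samples are biological replicates of 1 culture condition, the cells growing in RPMI medium with serum and with no treatment or change of FOXK2 named. The peaks were compared neither with the 2 input libraries, which were not analysed here, nor with another condition, and all shares below are descriptions without a test.

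FOXK2 is a forkhead transcription factor, and forkhead proteins recognise the heptamer TGTTTAC. Cytokines and interferons act through receptor chains bound to Janus kinases, which phosphorylate STAT proteins, and the phosphorylated dimers bind GAS elements, whose consensus is written TTCNNNGAA. Type I interferon additionally assembles a complex with STAT2 and IRF9 that binds the interferon-stimulated response element (ISRE), searched here as TTTC, any 2 bases and TTTC. IRF1 and IRF2 bind closely related sequences, as an activator and mainly as a repressor, while SOCS proteins are induced by STATs and shut the signal down. STAT3 and STAT5B carry signals of the IL-6 and growth hormone type, and both have been studied widely in carcinoma.

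The stretches of genome that carry the FOXK2 peaks are shown first, on the plus strand of hg38. Capitals mark TGTTTAC, its first 6 bases TGTTTA, the related word TGTTTG, or a GAS word, each on either strand. The first 4 lines come from the regions that both replicates called at the same place, and the IRF1 and STAT5B lines from peaks of one replicate, shown for their GAS and forkhead words. Exonic bases were left out, except for 30 bases around adjoining GAS words at SOCS2.
IRF2 promoter, both replicates, chr4:184474559-184474683: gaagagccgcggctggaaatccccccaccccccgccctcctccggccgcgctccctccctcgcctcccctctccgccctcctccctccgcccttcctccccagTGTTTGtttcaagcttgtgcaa
STAT2 promoter, both replicates, chr12:56360305-56360462: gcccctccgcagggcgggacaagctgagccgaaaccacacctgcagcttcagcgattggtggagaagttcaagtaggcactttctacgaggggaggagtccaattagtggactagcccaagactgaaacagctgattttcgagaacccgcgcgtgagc
SOCS2 promoter, both replicates, chr12:93570891-93570920: gccgaTTCCTGGAAagTTCCTGGAAagccg
SOCS3 distal region, both replicates, chr17:78330950-78331160: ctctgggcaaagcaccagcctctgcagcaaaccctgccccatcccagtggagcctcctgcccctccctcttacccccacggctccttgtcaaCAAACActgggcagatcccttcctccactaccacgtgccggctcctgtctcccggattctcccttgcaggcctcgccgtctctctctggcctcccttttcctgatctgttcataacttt
IRF1 promoter, replicate 1, chr5:132490778-132490980: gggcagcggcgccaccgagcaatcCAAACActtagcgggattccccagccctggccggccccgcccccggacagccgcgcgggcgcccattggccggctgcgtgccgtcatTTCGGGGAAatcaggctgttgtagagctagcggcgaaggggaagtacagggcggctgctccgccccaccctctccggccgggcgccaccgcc
IRF1 upstream peak, replicate 2, chr5:132510570-132510620: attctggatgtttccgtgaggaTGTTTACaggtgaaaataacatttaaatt
STAT5B intron peak, replicate 2, chr17:42267112-42267162: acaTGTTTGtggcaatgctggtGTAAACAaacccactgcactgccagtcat

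Each peak carries a score that HOMER scales to its library. Scores below 10 were whole multiples of 0.189 in replicate 1 and of 0.149 in replicate 2, to within 0.026 and 0.033 of a step. If HOMER's default scaling to 10000000 tags was used, a step is 1 tag, the libraries held 53000000 and 67200000 tags, and the median peak held 31 tags in replicate 1 and 49 in replicate 2. Tag numbers below rest on that reading and are given with exact Poisson 95% intervals, which cover counting error only. A peak is ranked from 1, the highest score, within its own list, and its percentile is the share of that list with a lower score.

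FOXK2 peaks were listed for 6 of the 8 genes in both replicates: IRF1, IRF2, STAT2, STAT3, SOCS2 and SOCS3. IRF9 and STAT5B had a peak in replicate 2 alone. Of 20056 protein-coding genes in RefSeq, 28.6% had a peak in both lists, but these 8 genes were chosen with earlier results of the same lists known, so their count is a description. At the level of the site, 4 of the 8 genes had peaks that overlapped between the replicates by at least 1 bp, beside 25.5% of protein-coding genes. They were IRF2, STAT2, SOCS2 and SOCS3, and this count is likewise a description.

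The other peaks lay at different places in the replicates. Of the 7 peaks of replicate 1, 4 were overlapped in replicate 2 (57.1%, Wilson 95% interval 25% to 84.2%), beside 74.9% of that whole list. Of the 17 peaks of replicate 2, 4 were overlapped in replicate 1 (23.5%, 9.56% to 47.3%), beside 34.2% of the list. Both intervals hold the value of the whole list. The replicate 2 list was 2.19 times as long as that of replicate 1, and it held 2.43 times as many peaks at these genes.

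**Figure D1:**
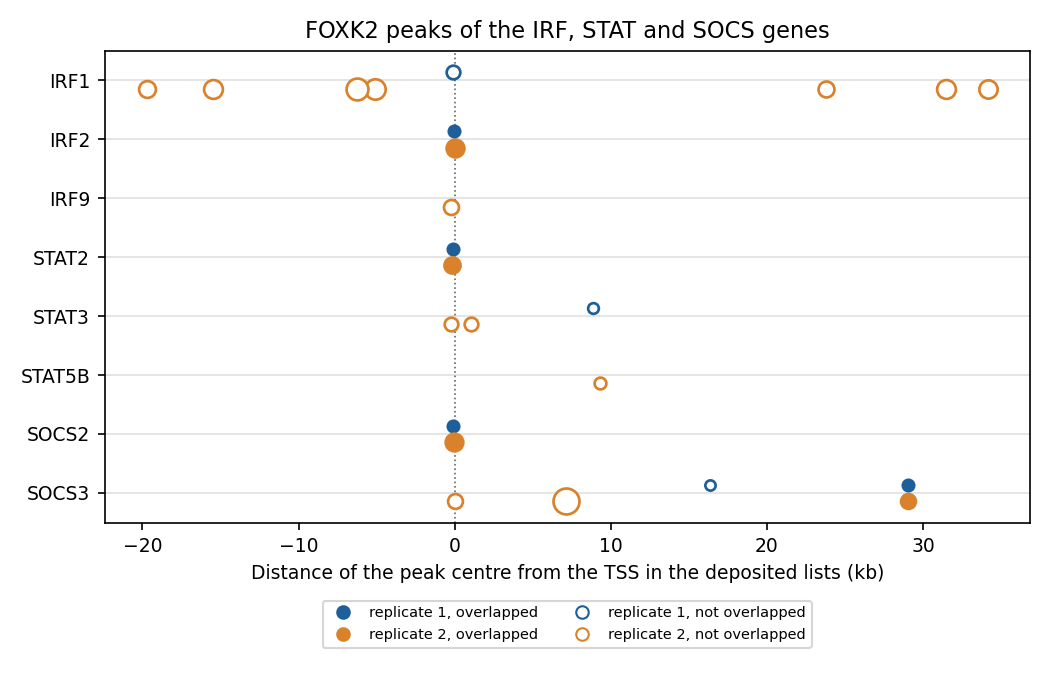
Each circle is 1 peak of the 8 genes, placed by the distance of its centre from the TSS in kb, with an area in proportion to its implied tags. Filled circles are overlapped in the other replicate: 1 pair each at IRF2, STAT2, SOCS2 and SOCS3, while the 7 replicate 2 peaks of IRF1 run from 19721 bp upstream to 34138 bp downstream of the TSS with no partner.

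Of the 4 shared sites, 3 lay near a start site, those of IRF2, STAT2 and SOCS2. At IRF2, the peak of replicate 1 lay 59 bp upstream of the TSS with 27 tags (17.8 to 39.3), and that of replicate 2 lay 17 bp downstream with 66 tags (51.0 to 84.0). They ranked 7875 and 8096 in their lists, at percentiles of 32.7 and 69.4, and had 158 bases in common. IRF2 is transcribed from the minus strand, and the divergent transcript IRF2-DT also starts within 1000 bp of these peaks, so the nearest TSS does not by itself say which transcript the peak belongs to. The shared stretch printed above holds TGTTTG and no TGTTTAC.

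At STAT2, a transducer of type I interferon signals, the centres lay 104 bp upstream of the TSS in replicate 1 and 180 bp upstream in replicate 2. The peaks held 27 tags (17.8 to 39.3) and 54 tags (40.6 to 70.5), at percentiles of 32.7 and 56.5. Their common stretch of 158 bases lies wholly outside exons, and none of the motifs searched was found in it.

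At SOCS2, a STAT5-induced inhibitor of growth hormone signalling, the replicate 1 peak was 118 bp upstream with 27 tags (17.8 to 39.3) and the replicate 2 peak 56 bp upstream with 65 tags (50.2 to 82.8). Their percentiles were 32.7 and 68.4. Both peaks hold 3 GAS words, TTCCCTGAA at chr12:93570824-93570832 and TTCCTGGAA at chr12:93570896-93570904 and at chr12:93570907-93570915, with 2 bases between the last ones. Peaks with at least 3 GAS words were rare, 2 in the whole replicate 1 list and 6 in that of replicate 2. SOCS2-AS1 starts from the opposite strand within 1000 bp of the same peaks.

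SOCS3, the feedback inhibitor of IL-6 type receptors that STAT3 induces, had its shared peak far from the gene. The centre was 29024 bp downstream of the TSS in both replicates, with 27 tags (17.8 to 39.3) in replicate 1 and 46 tags (33.7 to 61.4) in replicate 2, at percentiles of 32.7 and 44.4. The replicate 1 peak, 211 bases long, lay wholly inside that of replicate 2. The stretch holds TGTTTG on the minus strand, read as CAAACA in the line above, and no TGTTTAC.

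The 4 shared peaks all had the same score in replicate 1, 5.09, which 522 peaks of that list have. Of those 522 peaks, 64.0% were overlapped in replicate 2. The score in replicate 2 divided by that in replicate 1 was 1.93 at IRF2, 1.90 at SOCS2, 1.58 at STAT2 and 1.34 at SOCS3. Over all 9343 overlapping pairs the median ratio was 1.73 (quartiles 1.45 and 2.02), so only SOCS3 fell outside the quartiles.

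**Figure D2:**
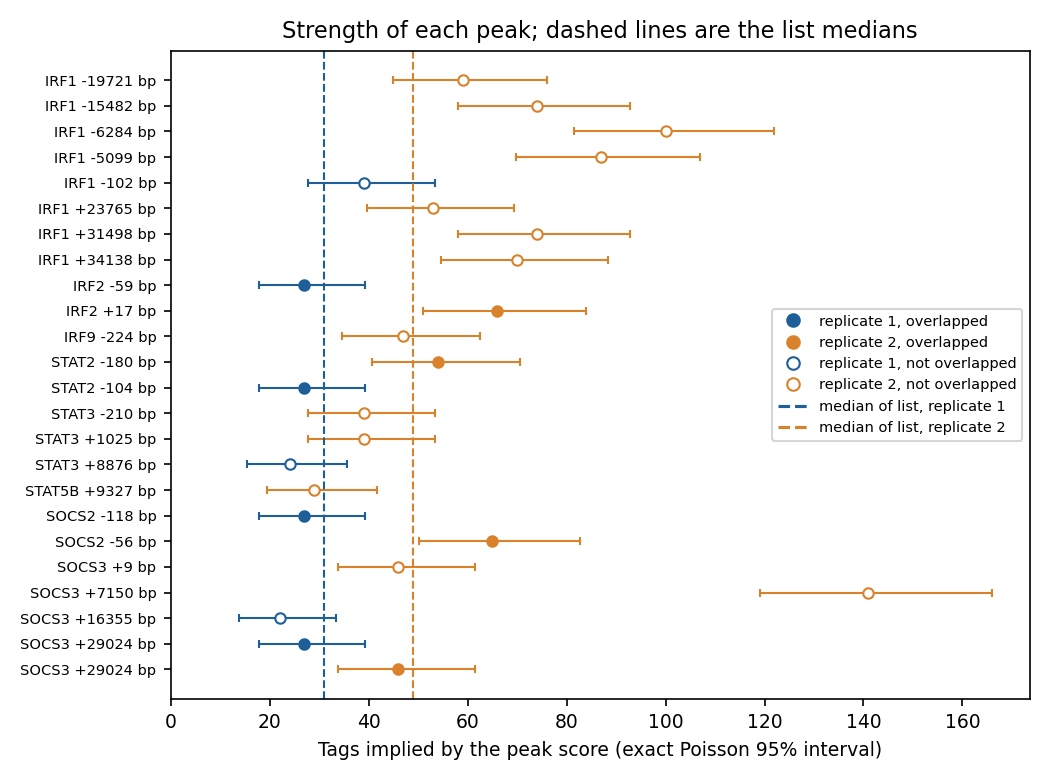
Points give the tags implied by the score of each of the 24 peaks, with exact Poisson 95% intervals, and dashed lines give the median of each whole list (31 and 49 tags). In replicate 1 only the IRF1 promoter peak is above the list median, while in replicate 2 the SOCS3 peak 7150 bp downstream of the TSS, at 141 tags, is the strongest and has no partner.

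IRF1, the interferon gamma-induced activator of the family, had the most peaks and none in common between the replicates. Replicate 1 had a single peak 102 bp upstream of the TSS with 39 tags (27.7 to 53.3), rank 3872 and percentile 67.1. It was the strongest of the 7 peaks in that replicate. Replicate 2 listed no peak there, and its nearest peak began 4764 bp away. Of the 229 replicate 1 peaks with the same score, 93.0% were overlapped in replicate 2. The peak holds a GAS word on the plus strand, TTCGGGGAA at chr5:132490889-132490897. Read on the strand of IRF1 it is TTCCCCGAA, which starts 124 bp upstream of the RefSeq start site.

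In replicate 2, 7 peaks over 54116 bp were assigned to IRF1. The 4 upstream peaks lay 5099, 6284, 15482 and 19721 bp from the TSS with 87, 100, 74 and 59 tags. The 3 others lay 23765, 31498 and 34138 bp downstream with 53, 74 and 70 tags, inside intron 3 of a transcript of the antisense gene IRF1-AS1 (C5orf56 in the lists). All 7 were above the median of the list, from percentile 55.1 to percentile 87.4. In the GENCODE annotation IRF1 spans chr5:132440440-132508719. The peaks 5099, 6284 and 15482 bp upstream of the TSS used here lie inside that longer gene, as do the 3 downstream peaks. Another IRF1 transcript starts within 1000 bp of the peaks 5099 and 6284 bp upstream. Of the protein-coding genes with a peak in replicate 2, 2.19% had 7 or more. None of the 7 had a partner. Of the 500 peaks nearest in rank, 72.8% had one for the strongest of the 7 and 31.6% for the weakest.

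The peak 6284 bp upstream holds both a GAS word, TTCCGGGAA, and an ISRE word. The peak 19721 bp upstream is the only one at IRF1 with TGTTTAC, which lies 101 bp from its centre, and the peak 15482 bp upstream holds the shorter TGTTTA 3 times.

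SOCS3 had further peaks in each replicate that the other lacked. In replicate 2 the peak centred 7150 bp downstream of the TSS was the strongest of all 24, with 141 tags (119 to 166), rank 1354 and percentile 94.9. Of the 500 peaks nearest to it in rank, 91.6% were overlapped in replicate 1. This one was not, and the closest replicate 1 peak was 8972 bp away. It was also the peak richest in G and C, at 77.4%, and holds TGTTTA 16 bp from its centre. Replicate 2 also had a peak at the SOCS3 start site, 9 bp downstream, with 46 tags (33.7 to 61.4) and percentile 44.4, which holds a GAS word. SOCS3-DT starts on the other strand within 1000 bp of it. Replicate 1 instead had a peak 16355 bp downstream with 22 tags (13.8 to 33.3) at percentile 9.70, the weakest of the 24 by tags.

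The peaks of the remaining genes had no partner and were all below the median of their lists. At STAT3, which relays IL-6 type signals, replicate 1 had a peak in intron 1, 8876 bp downstream of the TSS, with 24 tags (15.4 to 35.7) and percentile 19.4. Replicate 2 had a peak 1025 bp downstream in the same intron and another 210 bp upstream at the promoter, each with 39 tags (27.7 to 53.3) and percentile 31.9. The nearest of these was 7618 bp from the replicate 1 peak, so STAT3 was among the 6 genes with a peak in both lists but had no shared site.

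At IRF9, the DNA-binding partner of STAT2 in type I interferon signalling, the replicate 2 peak lay 224 bp upstream with 47 tags (34.5 to 62.5) and percentile 46.1. RNF31 starts within 1000 bp of this peak as well. STAT5B, the mediator of growth hormone signals, had a peak in intron 1, 9327 bp downstream, with 29 tags (19.4 to 41.6) and percentile 10.3. It is the weakest replicate 2 peak of the 8 genes, and it holds TGTTTAC on the minus strand 58 bp from its centre. Among 645 replicate 2 peaks with that score, 5.43% were overlapped in replicate 1.

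**Figure D3:**
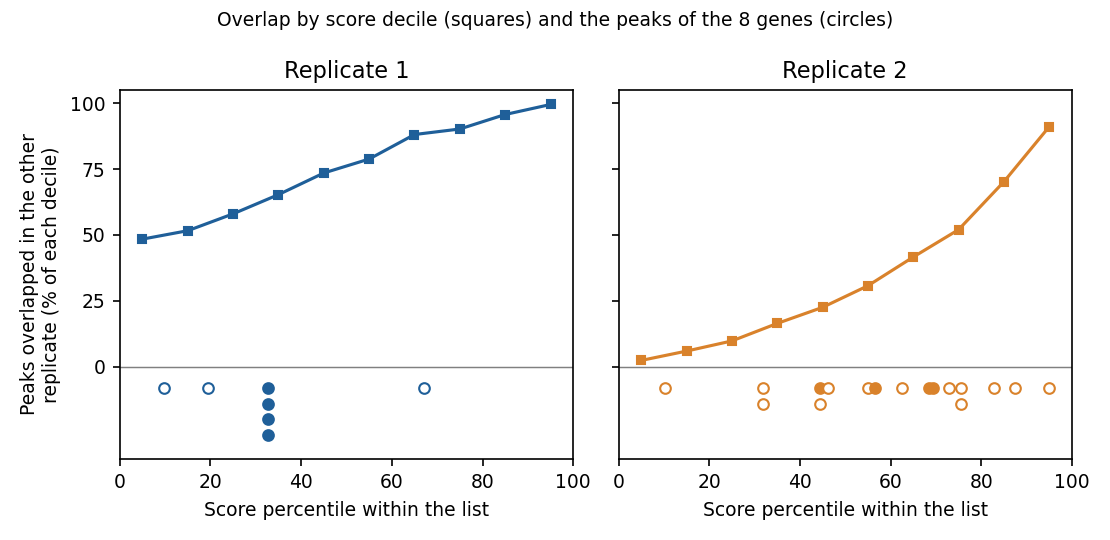
Squares give, for each 10% of a list by score, the percentage of peaks overlapped in the other replicate, and circles below 0 mark the score percentiles of the peaks of the 8 genes, filled where overlapped. From the lowest to the highest scores the share climbs from 48.4% to 99.5% for replicate 1 and, for replicate 2, between 2.35% and 91.1%, and the open circles at percentile 67.1 (IRF1, replicate 1) and percentile 94.9 (SOCS3, replicate 2) stand where most peaks of the list have a partner.

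By strength, the replicate 1 peaks of the 8 genes spanned percentiles of 9.70 to 67.1, with a median of 32.7. Those of replicate 2 spanned 10.3 to 94.9, with a median of 62.5. In replicate 1, 1 of 7 was above the list median, and in replicate 2, 11 of 17. Of those 11, 7 were at IRF1, and without IRF1 it was 4 of 10, with a median percentile of 45.3. With lists of equal length the replicate 2 median was 40.5. The groups of percentiles overlap, and none of the 8 genes had a shared peak in the upper 10% of both lists, beside 4.25% of protein-coding genes.

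By the deposited annotation, 4 of 7 peaks in replicate 1 were at promoters (57.1%, Wilson 95% interval 25% to 84.2%), beside 21.7% of that list. In replicate 2 it was 6 of 17 (35.3%, 17.3% to 58.7%), beside 18.0%. IRF2, STAT2 and SOCS2 had a promoter peak in both replicates, 3 of the 8 genes beside 9.30% of protein-coding genes. By that annotation, a promoter peak was listed for IRF1 in replicate 1 alone, and for IRF9, STAT3 and SOCS3 in replicate 2 alone. With GENCODE transcript starts in its place, the share of peaks at promoters was 57.1% in replicate 1 and 41.2% in replicate 2. STAT5B was the only gene of the 8 with no promoter peak. The peaks had a median G and C content of 60.7% in replicate 1 and 58.4% in replicate 2, against 47.4% and 45.9% over the whole lists and 63.5% and 63.4% over promoter peaks. What part base content has in the overlap between replicates was not tested.

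The forkhead heptamer was found in few of these peaks. TGTTTAC was in 0 of 7 peaks in replicate 1, where the limit of 3 counts allows a share of up to 42.9% and the Wilson 95% interval ends at 35.4%, beside 30.8% of that list. It was in 2 of 17 in replicate 2 (11.8%, Wilson 95% interval 3.29% to 34.3%), beside 29.2%. Both intervals hold the share of the whole list. Promoter peaks of the whole lists held it less often, in 14.4% and 11.3%. The 6-base TGTTTA, which each heptamer contains, was in 0 of 7 peaks in replicate 1 (Wilson 95% interval 0% to 35.4%), beside 45.3% of that list. In replicate 2 it was in 7 of 17 (41.2%, 21.6% to 64.0%), beside 46.2%. The word TGTTTG, searched after the letters of the shared peaks were seen, was in 3 of 7 peaks (42.9%, 15.8% to 75%) and in 6 of 17 (35.3%, 17.3% to 58.7%), beside 17.9% and 21.6%.

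GAS words were in 2 of 7 peaks in replicate 1 (28.6%, 8.22% to 64.1%), those of IRF1 and SOCS2, beside 7.44% of the list. In replicate 2 they were in 4 of 17 (23.5%, 9.56% to 47.3%), beside 9.09%. The 4 were the IRF1 peak 6284 bp upstream and the promoter peaks of IRF9, SOCS2 and SOCS3. ISRE words were in 0 of 7 peaks in replicate 1, beside 3.03%. In replicate 2 they were in 3 of 17 (17.6%, 6.19% to 41.0%), at IRF2 and at a pair of IRF1 peaks, beside 4.41%. The list's share lay outside the interval for TGTTTA in replicate 1, promoters in replicate 1, GAS words in both replicates and ISRE words in replicate 2, and inside it for the other motif and promoter shares given with an interval. These intervals are no test, since the genes were chosen with results known and the peaks of 1 gene share a locus. A match of letters does not show that a STAT or IRF protein was bound.

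RefSeq promoter windows, from 250 bases before to 50 after a start site of GRCh38.p14, were at hand for 6 of the 8 genes, all but IRF2 and SOCS2. None of these held TGTTTAC, which is in 3.42% of 35116 such windows. GAS words were in those of IRF1 and IRF9, beside 7.66% of all windows. That of IRF9 was downstream of the peak and another word than the one inside it. The SOCS3 window was counted without one, although the replicate 2 peak at the SOCS3 start site holds a GAS word at chr17:78360133-78360141. The start site of that window was not compared with the TSS of the lists. The ISRE word was in none of the 6 windows, beside 3.57%.

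No IRF gene outside the 8 had a peak in both replicates, among the 5 considered. Shared peaks stronger than those of the 8 were found at other STAT and SOCS genes and at IRF2-binding proteins, corepressors that are not themselves IRFs. STAT4 had an overlapping pair 14713 and 14719 bp upstream, at percentiles of 93.5 and 95.1, both with TGTTTAC. IRF2BPL, a protein of the IRF2-binding group, had a promoter pair at percentiles of 95.9 and 97.9 without it. SOCS1, the inhibitor of Janus kinases in interferon signalling, had a promoter pair at 77.5 and 80.5, SOCS5 an intron pair at 82.0 and 93.0, and IRF2BP2, of the same group as IRF2BPL, a pair in its annotated 3′ untranslated region at 65.1 and 74.3.

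These 5 genes were those with a peak in both replicates among 12 other STAT and SOCS family genes and IRF2-binding proteins. IRF3, IRF8, IRF2BP1, STAT6 and SOCS4 had peaks in replicate 2 alone. No peak of either list was assigned to IRF4, IRF5, IRF7, STAT5A, SOCS6, SOCS7 or CISH. STAT3, STAT5A and STAT5B lie side by side on chromosome 17, and in both lists together this block held the 4 STAT3 and STAT5B peaks described above, all under percentile 32 of their lists, and a peak inside STAT5B that the lists assign to GHDC.

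**Figure D4:**
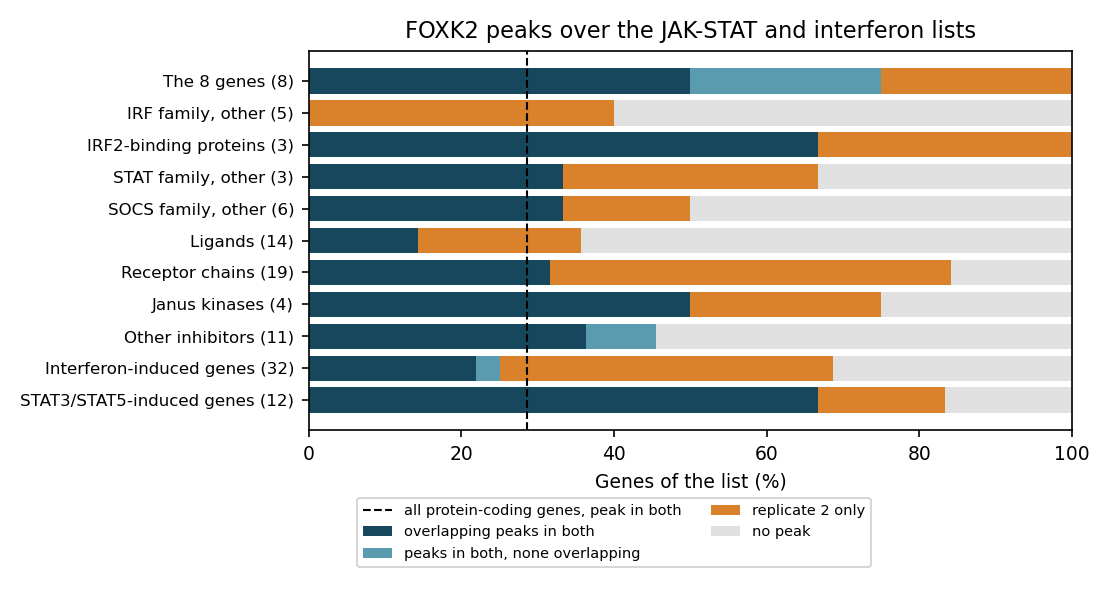
Bars split each gene list into the percentage of genes with overlapping peaks, with peaks in both replicates but none overlapping, with peaks in replicate 2 alone, and with none, with the number of genes in brackets. The dashed line marks the 28.6% of protein-coding genes with a peak in both, which the STAT3 and STAT5-induced genes (8 of 12) pass and the ligands (2 of 14) do not reach. The gene lists were chosen with earlier results of these data known, so the bars are descriptions.

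Over the rest of the pathway, 109 genes in 10 lists, 36 genes had a peak in both replicates (33.0%, beside 28.6% of protein-coding genes) and 34 of them had overlapping peaks. Among ligands there were 2 of 14, IL15 and CSF2. Among receptor chains there were 6 of 19, the interferon receptor genes IFNAR2, IFNGR1 and IFNGR2 and also LIFR, OSMR and EPOR. Janus kinases counted 2 of 4, JAK1 and JAK2. Other inhibitors counted 5 of 11, PIAS1, PTPN1, PTPN2, PTPRC and SH2B3. Of the interferon-induced genes, 8 of 32 had a peak in both lists and 14 in replicate 2 alone. All these gene lists were chosen with earlier results of the same data known, so their counts are descriptions.

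The genes that STAT3 or STAT5 are known to induce counted 8 of 12, with 5 whose overlapping peaks were in the upper 10% of both lists. That held for 10 of the 109 genes and for 4.25% of protein-coding genes. This list too was chosen with earlier results of the same peak lists known, so its counts are a description. PIM1, a survival kinase, led with an intron pair of 187 and 470 tags at percentiles of 99.5 and 99.8. JUNB followed with 175 and 387 tags, and FOS with 108 and 320 tags, both AP-1 subunits. BCL6, a transcriptional repressor, had 79 and 243 tags, and MYC 74 and 240. Outside that list, and besides STAT4 and IRF2BPL described above, the upper 10% of both held PTPN1, a phosphatase of Janus kinases, with 88 and 218 tags 87003 and 87024 bp upstream, JAK1 with 80 and 250 tags in an intron, and ISG20, an interferon-induced exonuclease, with 73 and 191 tags at its promoter. Of PIM1, JUNB, FOS, BCL6, MYC, PTPN1, JAK1 and ISG20, all but BCL6 and ISG20 had TGTTTAC in both peaks of the pair. The strongest shared peak of the 8 IRF, STAT and SOCS genes, that of IRF2, held 27 and 66 tags.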

How the data were processed

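FOXK2 ChIP-seq was done in OVCAR5 cells in biological duplicate. Per the study's methods, single-end reads were mapped to hg38 with Bowtie2 2.2.6 and peaks were called with HOMER 4.10. The deposited files hold a separate list for each replicate. The calling threshold is not given in the sources used here. Each deposited list gives a peak score, scaled by the authors' software to its own library, a focus ratio (a fraction in the deposited lists, not used for results), positions and the nearest TSS. Lists were used whole. Coordinates were read as 1-based and inclusive, so peaks are 211 and 257 bases long.

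Peaks were taken by gene name, which matched the Entrez identifier for all 24. The 8 genes and the pathway lists were chosen with earlier results of these data known. All 117 listed genes matched RefSeq. Some genes and sequences are not reported here. Overlap needed 1 bp. Motifs were searched on both strands of whole peaks in hg38. GENCODE release 44 gave exons and neighbouring starts. Named genes were the 8, other IRF, STAT and SOCS family genes, IRF2-binding proteins, and pathway genes with overlapping peaks in the upper 10% of both lists (at most 15). Names given for counts of 6 or fewer were chosen after the values were seen. On simulated lists and sequences, the scripts for overlap and the heptamer were tested and returned every planted case. Alternatives were stricter scores, equal list lengths, distance limits, promoter peaks, gene bodies, overlap rules, motif windows and words, and leaving out each replicate. Software was samtools 1.23.1 and, under Python 3.11.15, pysam 0.24.0, pandas 2.3.3, scipy 1.17.1, numpy 2.4.6 and matplotlib 3.10.9.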

Additional observations from a re-analysis of the deposited data

How the results depend on the processing

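Of 54 alternative values, 41 stayed within the limits set for them: 1.5 times for counts, the Wilson interval for shares and the SD between replicates for the median percentile. The 6 genes with a peak in both replicates became 1 (IRF1) with peaks above the median score of each list and 3 with promoter peaks only, and ran from 6 to 8 when a replicate was left out. For the 36 genes of the rest of the pathway, the count was 23 within 10000 bp of the TSS and 10 with promoter peaks only, and ran from 36 to 71 when a replicate was left out. With peaks above the median score of each list, no peak of the 8 genes was overlapped (0% in each replicate), and the single replicate 1 peak left, that of IRF1, made the shares at promoters and with a GAS word 100%. In replicate 2, TGTTTA in place of TGTTTAC gave 41.2%. TGTTTG, tried after seeing the data, gave 42.9% in replicate 1 and 35.3% in replicate 2. With lists of equal length, the median percentile in replicate 2 was 40.5, over the 11 peaks left, and without the peaks of IRF1, also tried after seeing the data, 45.3. By construction, stricter limits leave fewer peaks, a shorter word matches more often, and leaving out a replicate drops the need for a peak in both. For TGTTTG the cause was not tested. No paired analysis was possible because the values used here are peak lists of 1 group, the FOXK2 ChIP, while the input of each replicate was not analysed here. A pair of replicates gives only a rough measure of their own spread.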

Other observations

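The nearest-TSS rule leaves out peaks that lie in or beside the 8 genes and carry another name. Within the gene bodies and 10000 bp around them, replicate 1 had none and replicate 2 had 3. A peak inside STAT5B is assigned to GHDC (35 tags, 24.4 to 48.7, percentile 23.4), a peak 2114 bp beyond IRF2 to LINC02362 (36 tags, 25.2 to 49.8, percentile 25.6), and a peak 7580 bp beyond STAT2 to the PAN2 promoter (41 tags, 29.4 to 55.6, percentile 35.7). None of the 3 was overlapped in replicate 1.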
